A study of Macaca mulatta with 15 samples.

Results

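Transcripts of 9 cytotoxic granule genes were measured in T cell subsets of rhesus macaques, out of 34884 genes in the deposited count table. They were chosen by symbol: the granzymes GZMA, GZMB, GZMK and GZMM, the pore-former PRF1, and the granule genes NKG7, CTSW, CST7 and SRGN. Their Ensembl rows are ENSMMUG00000001597 (GZMA), ENSMMUG00000014381 (GZMB), ENSMMUG00000020171 (GZMK), ENSMMUG00000045966 (GZMM), ENSMMUG00000064708 (PRF1), ENSMMUG00000015369 (NKG7), ENSMMUG00000008649 (CTSW), ENSMMUG00000005757 (CST7) and ENSMMUG00000037735 (SRGN). The tenth gene sought, GNLY, has no symbol in that table. Its row, ENSMMUG00000063583, was matched through a separate table of gene names, so GNLY is described beside the 9 genes and stays out of every count of them. The 15 libraries came from peripheral blood of 2 healthy animals, RhM22 and RhDBCb. Each held CD8 memory, CD8 naive, CD4 memory or CD4 naive T cells, taken after or before treatment with 2-hydroxypropyl-beta-cyclodextrin. This sugar ring binds cholesterol, and it was injected under the skin as a 15% (w/w) solution of Kleptose HBP at 1 ml per kg and day for up to 120 days. No genotype or age was given in the labels, and no untreated animal was followed over the same time. There were 7 libraries after and 8 before treatment. CD8 naive cells after treatment were available from RhM22 only, since those of RhDBCb were not analysed here.

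Cytotoxic lymphocytes keep their killing proteins in secretory lysosomes that are released at the contact with a target cell. Perforin opens the target membrane, granzymes enter and cleave proteins inside, and the proteoglycan serglycin packs them within the granule until release. Memory CD8 T cells and natural killer cells are the blood cells best known for this programme, and a smaller set of memory CD4 T cells also carries it.

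Library totals lay between about 44415000 and 71787200 counts, and the 9 genes together took between 0.103% and 0.564% of a library's counts. The lineage markers matched the labels: CD8A and CD8B summed to 894 to 1131 CPM (counts scaled to the library's total and composition) in CD8 libraries and 1.46 to 4.38 CPM in CD4 libraries. The memory list of 9 genes summed to 5675 to 10590 CPM in memory libraries and 1892 to 3458 CPM in naive libraries. Natural killer cell markers were low but not flat. The 10 matched of 13 listed genes summed to 43.7 to 100.7 CPM in CD8 memory, 14.7 to 30.1 CPM in CD8 naive, 9.36 to 13.1 CPM in CD4 memory and 7.41 to 10.7 CPM in CD4 naive. Of 9 of these genes tested, 4 were called higher (edgeR, adjusted p under 0.05) in CD8 memory than in CD4 memory. Against CD8 naive cells 4 were called higher too, and 0 were lower in either comparison. Of all genes tested, 3.76% and 8.1% were called higher there. KLRF1 led the sum in every CD8 memory library, at 19.1 to 61.9 CPM. NCAM1 stayed at or below 1.80 CPM, NCR1 at or below 2.06 CPM, and CLIC3 was at 0 in all 15 libraries. Markers of gamma-delta T cells followed the same order, with 23.3 to 68.4 CPM in CD8 memory and at most 1.60 CPM in either CD4 subset. Markers of mucosal-associated invariant T (MAIT) cells, 5 matched of 6 listed, summed to 116.2 to 293 CPM in CD8 memory, 73.4 to 118.5 CPM in CD8 naive, 25.1 to 34.1 CPM in CD4 memory and 40.9 to 55.3 CPM in CD4 naive cells. Of these 5 genes 5 were called higher in CD8 memory than in CD4 memory and 4 higher, 1 lower in CD8 memory than in CD8 naive. Although the sum was lower in CD4 memory than in CD4 naive cells, 3 genes were called higher there and 1 lower. Single genes weighed on the sums, as TMIGD2 did with 36.8 of 55.3 CPM in CD4 naive cells of RhDBCb after treatment. In the same order, 3.76%, 8.1% and 5.22% of all genes were called higher and 2.59%, 5.39% and 3.16% lower. What part these cells had in the granule transcripts was not tested. In such bulk libraries, fewer cells of a type and less RNA per cell cannot be told apart. One library stood apart from its group: CD8 naive before treatment from RhDBCb had GZMK at 140.1 CPM and GNLY at 180.4 CPM, several times the other CD8 naive libraries. Its natural killer list summed to 30.1 CPM against 14.7 and 18.9 CPM in the other CD8 naive libraries, while its memory list, at 1892 CPM, was the lowest of the 3. Several tests and CD8 naive means of the granule genes that rest on it are also given without it. Comparisons of other gene lists are given only with it.

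The genes differed widely in the deposited FPKM (fragments per kilobase, scaled by library depth). The gene lengths behind FPKM are not given in the sources used here, so orders between genes on that scale could not be checked. On it, PRF1 led in CD8 memory with 155 ± 98.3, followed by NKG7 at 120.1 ± 35.6 and SRGN at 109 ± 31.7 (SD, n = 4 libraries). In CD8 naive cells, SRGN averaged 71.2 ± 23.7 and CTSW 67.2 ± 22.9 FPKM (SD, n = 3), or 84.3 ± 10.2 and 54.1 ± 4.92 FPKM without the outlying library (SD, n = 2). In CD4 memory cells SRGN stood at 119 ± 23.1 FPKM and the next gene, NKG7, at 10.4 ± 1.47 FPKM (SD, n = 4). In CD4 naive cells SRGN stood at 87.0 ± 14.8 FPKM and the next gene, PRF1, at 9.08 ± 3.11 FPKM (SD, n = 4). GZMA had the lowest FPKM of the 10 genes in all 4 subsets, from 2.83 ± 0.878 FPKM in CD8 memory to 0.0298 ± 0.0278 FPKM in CD4 naive cells. In CPM, which uses no length, SRGN had the highest mean in all 4 subsets. It had 1380 CPM in CD8 memory, against 779 CPM for PRF1. In CD4 memory the lowest mean CPM was that of CTSW, 3.57 against 3.66 for GZMA. The order of the 4 subset means was the same in CPM and FPKM for 10 of 10 genes.

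**Figure D1:**
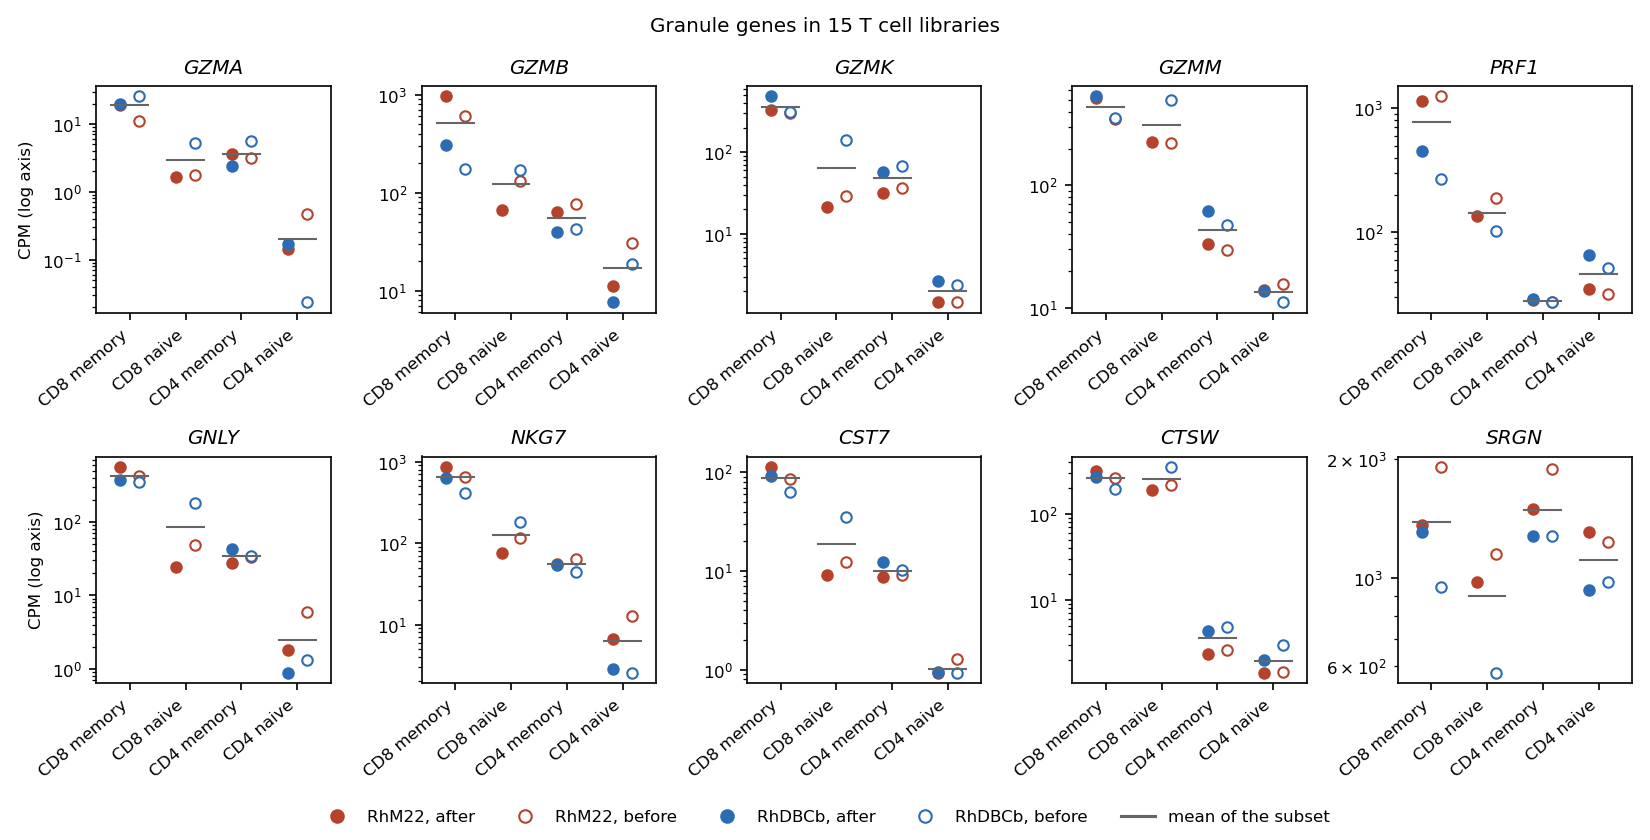
Level of each granule gene in the 15 libraries, in CPM on log axes that differ between panels. Points are single libraries, filled after and open before treatment, coloured by animal, and the line is the subset mean; every gene except SRGN has its highest mean in CD8 memory and every gene except PRF1 and SRGN its lowest in CD4 naive.

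The granzymes are serine proteases, and they made different profiles across the subsets. GZMB, which cleaves after aspartate and sets off caspases, had 308 CPM in RhDBCb and 961 CPM in RhM22 in CD8 memory cells after treatment, and 172 and 609.6 CPM in the same animals before it. CD8 naive cells had 66.7 CPM after treatment in RhM22, and before it 171 CPM in RhDBCb and 129.9 CPM in RhM22. CD4 memory cells had 39.5 to 76.0 CPM and CD4 naive cells 7.55 to 30.7 CPM. CD8 memory and CD8 naive ranges nearly touched, because the lowest CD8 memory library and the highest CD8 naive library, both of RhDBCb before treatment, differed by less than 1 CPM. Within that animal and time the memory-minus-naive difference was 0.005 on the log2 scale, while the pairs of RhM22 gave 2.23 before and 3.85 after treatment.

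GZMK and GZMA are tryptases that cleave after basic residues, and their genes lie next to each other with 0 protein-coding genes between them on the RefSeq assembly T2T-MMU8v2.0. GZMK, often linked to memory cells short of full effector differentiation, had 483 and 324 CPM in CD8 memory cells after treatment (RhDBCb and RhM22) and 312 and 298 CPM before. CD8 naive cells had 21.3 CPM after treatment and 28.7 CPM before it in RhM22, against 140.1 CPM in the outlying library of RhDBCb. CD4 memory cells held 31.9 to 67.8 CPM and CD4 naive cells 1.44 to 2.68 CPM. The 3 subset ranges of CD8 memory, CD4 memory and CD4 naive did not overlap. GZMA ran at a much lower level, with 11.0 to 25.6 CPM in CD8 memory, 1.66 to 5.26 CPM in CD8 naive, 2.37 to 5.53 CPM in CD4 memory and 0.0233 to 0.468 CPM in CD4 naive cells. The lowest of these values rests on 1 read count, so ratios against it are not given.

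GZMM, a granzyme that cuts after methionine and leucine, was present in both memory and naive CD8 cells. CD8 memory cells had 535 CPM (RhDBCb) and 519.9 CPM (RhM22) after treatment and 356 and 352 CPM before it, and CD8 naive cells had 226 CPM after in RhM22, and 495 CPM (RhDBCb) and 220.4 CPM (RhM22) before. The CD8 ranges overlapped through the outlying RhDBCb library alone, since both RhM22 naive libraries lay below every CD8 memory library. CD4 memory cells had 29.5 to 61.3 CPM and CD4 naive cells 11.0 to 15.6 CPM, all below every CD8 library. As a share of the summed FPKM of the 4 granzymes, GZMM made up 50.0% ± 2.48 in CD8 memory (n = 4 libraries), 80.4% ± 5.73 in CD8 naive (n = 3), 42.1% ± 6.11 in CD4 memory (n = 4) and 70.2% ± 7.89 in CD4 naive cells (n = 4; SD throughout). GZMK made up 34.2% ± 5.93 in CD8 memory and 39.5% ± 5.64 in CD4 memory, against 11.2% ± 5.92 in CD8 naive and 8.99% ± 3.68 in CD4 naive cells. Without the outlying library, GZMM made up 83.0% ± 4.88 and GZMK 7.78% ± 1.33 in CD8 naive cells (SD, n = 2). GZMB made up 5.85% to 21.6% in CD8 memory libraries, with both RhM22 libraries above both RhDBCb libraries. GZMH, a close relative of GZMB in humans, could not be matched by symbol and was not analysed here.

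**Figure D2:**
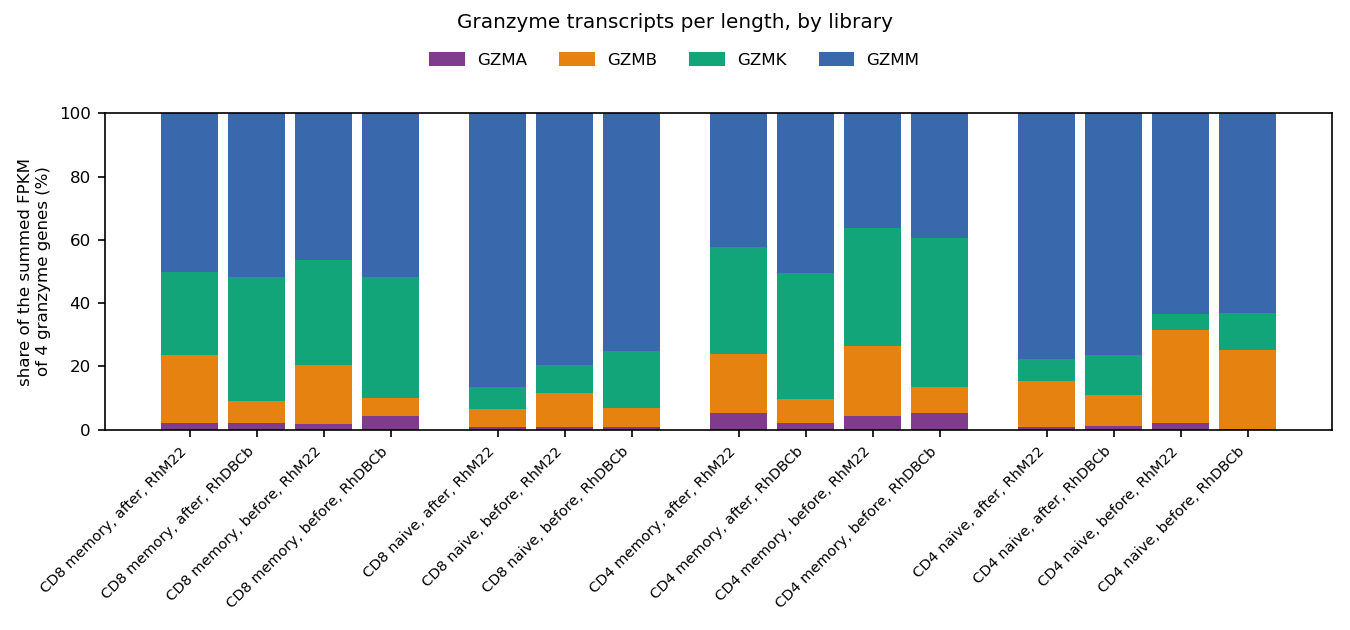
Share of each of 4 granzymes in their summed FPKM (percent, y axis) for each of the 15 libraries, grouped by subset. GZMM is the largest share in all CD8 naive and CD4 naive libraries, and GZMK takes 26.2% to 39.2% in CD8 memory and 33.9% to 47.2% in CD4 memory. Shares rest on gene lengths that are not given, and in CPM GZMB has the highest mean of the 4 in CD8 memory, CD4 memory and CD4 naive.

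Perforin, the pore-forming protein, was higher in memory than in naive cells in 3 of 3 CD8 pairs and lower in 4 of 4 CD4 pairs. PRF1 had 451 CPM (RhDBCb) and 1146 CPM (RhM22) in CD8 memory cells after treatment, and 269 and 1249 CPM before. CD8 naive cells had 136 CPM after treatment in RhM22, and 102 CPM (RhDBCb) and 190.2 CPM (RhM22) before. CD4 memory cells lay in a narrow band of 27.1 to 29.1 CPM, while CD4 naive cells had 65.6 and 34.6 CPM after treatment (RhDBCb and RhM22) and 51.9 and 32.0 CPM before. No 2 subset ranges of PRF1 overlapped, and CD4 memory was the lowest of the 4 subsets. GNLY, granulysin, a lytic protein active against microbes, had 354 to 565 CPM in CD8 memory and 24.1 to 180.4 CPM in CD8 naive cells. It had 27.4 to 42.2 CPM in CD4 memory and 0.876 to 6.01 CPM in CD4 naive cells.

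Of the genes that serve the granule itself, NKG7 encodes a granule membrane protein needed for efficient degranulation in mice. It had 410.5 to 865 CPM in CD8 memory, 76.6 to 182 CPM in CD8 naive, 44.7 to 63.4 CPM in CD4 memory and 2.54 to 12.8 CPM in CD4 naive cells, and these 4 ranges were apart. CST7, cystatin F, an inhibitor of lysosomal cathepsins that act on granzymes, followed the same order of means, at 88.5 ± 20.6 CPM in CD8 memory (SD, n = 4), 19.0 ± 14.4 CPM in CD8 naive (n = 3), 10.1 ± 1.64 CPM in CD4 memory (n = 4) and 1.02 ± 0.173 CPM in CD4 naive cells (n = 4). Its CD8 naive and CD4 memory ranges overlapped. The outlying library had 35.4 CPM of CST7, and the other CD8 naive libraries 9.03 and 12.5 CPM. The estimated counts of CST7 were not whole in 7 of 15 libraries, as happens where reads are divided between genes.

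CTSW, cathepsin W, a cysteine protease found mainly in CD8 T cells and natural killer cells, divided the lineages rather than the memory stages. It had 268 and 315 CPM in CD8 memory cells after treatment (RhDBCb and RhM22) and 199 and 262 CPM before, and 191 CPM after with 356 and 217 CPM before in CD8 naive cells. CD4 memory cells had 2.37 to 4.89 CPM and CD4 naive cells 1.41 to 2.98 CPM. Ranges overlapped between memory and naive cells within each lineage and were far apart between lineages. SRGN, serglycin, was the exception in the other direction, since all 4 subsets held it at 576 to 1907 CPM. Its ranges overlapped in every pair of subsets except CD4 memory against CD8 naive.

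CD8 memory cells were compared with CD4 memory cells over both times and animals. With edgeR's quasi-likelihood test at a Benjamini-Hochberg adjusted p under 0.05 (called, below), 8 of the 9 genes were higher in CD8 memory, against 3.76% of all 14814 genes tested called higher and 2.59% called lower. The median log2 fold change of the 9 genes was 3.18 and that of all genes tested 0.03. CTSW differed most, by 6.29 (SE 0.29, adjusted p = 1.137e-08), and was higher in 4 of 4 pairs. PRF1 differed by 4.70 (SE 0.45, adjusted p = 2.182e-05). GZMM, GZMB, GZMK and GZMA differed by 3.40, 3.19, 2.98 and 2.39, NKG7 by 3.55 and CST7 by 3.17. GNLY was also higher, by 3.67 (SE 0.59, adjusted p = 0.00147). SRGN was the one gene not called, at -0.11 (SE 0.16, adjusted p = 0.770). Each animal gave 1 draw at each time, so these p-values measure the spread among libraries of 2 animals.

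CD8 naive cells were set against CD4 naive cells in the same fit. Of the 9 genes 7 were called higher in CD8 naive, with 1.54% of all genes called higher and 1.26% lower, and the median was 4.14 against -0.02 for all genes tested. CTSW was 7.09 higher (SE 0.31, adjusted p = 4.928e-09), GZMK 4.83, GZMM 4.55, NKG7 4.40, CST7 4.14, GZMA 3.70 and GZMB 2.83. GNLY was higher by 4.94 (SE 0.66, adjusted p = 5.281e-04). PRF1 lay at 1.51 (SE 0.43, adjusted p = 0.0927) and was higher in 3 of 3 pairs, and DESeq2 gave it an adjusted p of 0.00481. It was also called by edgeR without the CD8 memory library before treatment of RhDBCb (adjusted p = 0.0284) or RhM22 (0.0489), or without the CD4 naive library of RhDBCb after treatment (0.0459). SRGN lay at -0.43 (SE 0.17, adjusted p = 0.293), lower in 3 of 3 pairs. Without the outlying RhDBCb library, 7 genes were again called and the median was 3.36, with GZMK at 4.04 and GNLY at 3.73.

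CD8 memory cells held more than CD8 naive cells of 7 of the 9 genes, where 8.1% of all genes were called higher and 5.39% lower. The median was 2.31 against 0.03 for all genes tested. GZMA was 2.83 higher (SE 0.57, adjusted p = 0.00441), GZMK 2.73, PRF1 2.43 (SE 0.45, adjusted p = 0.00253), NKG7 2.42, CST7 2.31, GZMB 2.14 and SRGN 0.73. GNLY was higher by 2.66 (SE 0.66, adjusted p = 0.0154). GZMM at 0.44 (SE 0.27, adjusted p = 0.322) and CTSW at 0.07 (SE 0.25, adjusted p = 0.902) were not called, each higher in memory in 2 of 3 pairs and lower in that of RhDBCb. Without the outlying CD8 naive library of RhDBCb, 6 of 9 genes were called and the median was 2.81. GZMK then stood at 3.49 and GNLY at 3.90, while SRGN, at 0.58, had an adjusted p of 0.0901. GZMM was 0.87 higher there (SE 0.27, adjusted p = 0.0664), still not called. Without the CD8 naive library of RhM22 after treatment, GZMB fell short at 1.64 (adjusted p = 0.103), GNLY at 2.00 (0.108) and SRGN at 0.72 (0.0584). Without the CD8 naive library of RhM22 before treatment, GZMB (adjusted p = 0.0510) and GNLY (0.0639) were lost, and without its CD8 memory library before treatment SRGN was lost (0.0578).

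CD4 memory cells were also above CD4 naive cells for 7 of the 9 genes, where 5.22% of all genes were called higher and 3.16% lower. The median was 1.79 against -0.03 for all genes tested. GZMK was 4.58 higher (SE 0.36, adjusted p = 9.741e-06), GZMA 4.13, CST7 3.29, NKG7 3.27, GZMB 1.79, GZMM 1.59 and CTSW 0.86. GNLY was higher by 3.92 (SE 0.62, adjusted p = 0.00122). All of these were higher in 4 of 4 pairs. The call for CTSW was narrow (SE 0.25, adjusted p = 0.0451) and was lost, at an adjusted p of 0.0511 to 0.125, without any 1 of 9 libraries. These were 7 of the 8 CD4 libraries, all but CD4 naive of RhDBCb before treatment, and the CD8 naive and CD8 memory libraries of RhM22 before treatment. GZMB was lost without the CD4 naive library after treatment of either animal or the CD4 memory library of RhDBCb after treatment, with adjusted p between 0.0529 and 0.0744. PRF1 went the other way, at -0.76 (SE 0.38, adjusted p = 0.261), lower in CD4 memory in 4 of 4 pairs but not called, and SRGN stood at 0.41 (SE 0.16, adjusted p = 0.124).

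**Figure D3:**
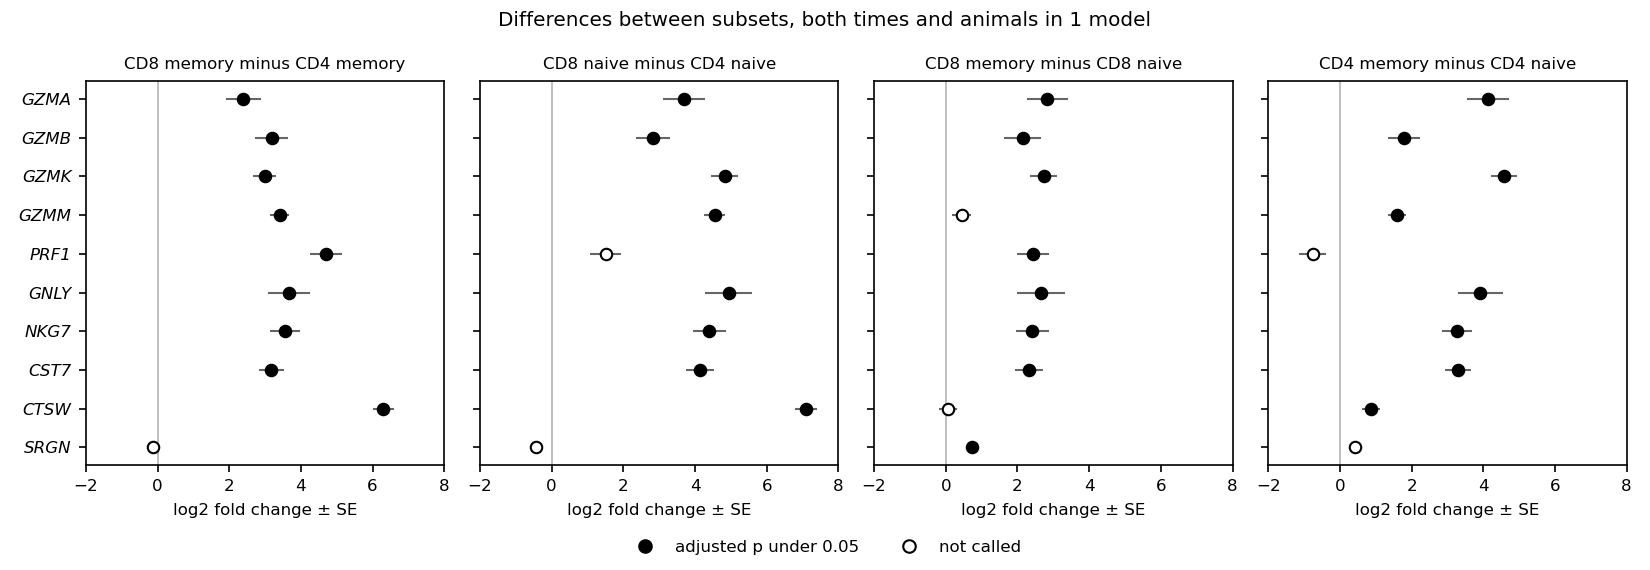
Log2 fold change of each granule gene between subsets, with its SE from edgeR, in 4 comparisons over both times and animals. Filled points passed an adjusted p of 0.05; CTSW stands at 6.29 and 7.09 between lineages and at 0.07 and 0.86 between memory and naive cells, and SRGN stays between -0.43 and 0.73.

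Whether the memory-minus-naive difference itself differed between lineages was tested as CD8 minus CD4. None of the 9 genes was called by edgeR, where 0.0405% of all genes were. At an unadjusted p under 0.05 with edgeR there were 4 of the 9 genes, beside 1007 of all 14814 tested. DESeq2 called 2, PRF1 and GZMK, where it called 1.65% of all genes. PRF1 lay at 3.19 (SE 0.59, adjusted p = 0.107), with a memory effect of 2.43 in CD8 and -0.76 in CD4 cells. It was called without the CD8 memory library of RhDBCb before treatment, at 3.47 (adjusted p = 0.0181), and DESeq2 gave 3.17 (adjusted p = 4.182e-06). GZMK lay at -1.85 (SE 0.47, adjusted p = 0.294), and at -1.10 without the outlying CD8 naive library. GZMM lay at -1.15, or -0.76 without that library, and CTSW at -0.79, neither of them called.

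Treatment was then followed. Over all subsets, after minus before, none of the 9 genes was called by edgeR, at an unadjusted p under 0.05 or by DESeq2. Of all genes, edgeR called 0.00675% and DESeq2 1.19%, and 10.3% had an unadjusted p under 0.05 with edgeR. The 9 values ran from -0.50 for GZMB (SE 0.33, adjusted p = 0.625) to 0.17 for GZMM (SE 0.19, adjusted p = 0.785), with a median of -0.10 against 0.01 for all genes tested. GNLY lay at -0.63 (SE 0.43, adjusted p = 0.639). GZMM was higher after treatment in 6 of 7 pairs, GZMB in 2 of 7 and SRGN in 2 of 7.

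In CD8 memory, of the 9 genes 8 were higher after treatment in RhDBCb and 7 in RhM22, with medians of 0.59 and 0.40 on the log2 scale. GZMB was higher by 0.84 and 0.66, GZMM by 0.59 and 0.56, NKG7 by 0.63 and 0.40, CST7 by 0.52 and 0.42 and CTSW by 0.43 and 0.26 (RhDBCb and RhM22). GZMA, PRF1 and SRGN had opposite signs in the 2 animals. None of the 9 was called in CD8 memory by edgeR, at an unadjusted p under 0.05 or by DESeq2, and 0.0% of all genes were called. The fitted median was 0.33 against 0.01 for all genes tested, and the largest fitted value was that of GZMB, 0.72 (SE 0.41, adjusted p = 1). Most of these genes run together across libraries, so their signs are not separate observations. In RhDBCb the natural killer list summed to 60.6 CPM after and 43.7 CPM before treatment, and in RhM22 to 100.7 and 90.5 CPM. The gamma-delta list summed to 46.9 and 23.3 CPM in RhDBCb and to 68.4 and 59.2 CPM in RhM22. The MAIT list summed to 191.3 CPM after and 116.2 CPM before in RhDBCb, and to 293 and 243.1 CPM in RhM22. The CD8 memory library of RhDBCb before treatment also had a proliferation list of 728 CPM against 323 to 380 CPM in the other CD8 memory libraries, and the RhM22 pair does not use it. What part these cells had in the granule gene values was not tested.

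In CD8 naive cells, where RhM22 alone gave a pair, 8 of 9 genes were lower after treatment, with a median of -0.43. GZMB had 66.7 CPM after and 129.9 CPM before in that animal, and GNLY 24.1 CPM after and 48.3 CPM before. The fit, which also uses the outlying library of RhDBCb before treatment, gave a median of -0.90 against -0.02 for all genes tested. GZMB lay at -1.71 (SE 0.57), CST7 at -1.29 (SE 0.55) and GZMK at -1.29 (SE 0.52). None of the 9 was called by edgeR or DESeq2, 3 had an unadjusted p under 0.05 with edgeR and 4 with DESeq2. Of all 14814 genes tested 148 and 248 had such a p with these tools, and 0.0% were called. Without that library none had an unadjusted p under 0.05, and the median was -0.43.

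In CD4 naive cells GZMB had the lowest after-minus-before value of the 9 genes in both animals. It had 7.55 and 11.1 CPM after treatment (RhDBCb and RhM22), against 18.7 and 30.7 CPM before, so the groups did not overlap. The pair differences were -1.30 and -1.46 and the fitted value -1.39 (SE 0.43, adjusted p = 0.897). It was the one gene of 9 with an unadjusted p under 0.05 with each tool, at 0.00700 with edgeR, and neither tool called any of the 9. Of all 14814 genes tested, 603 had an unadjusted p under 0.05 with edgeR and 893 with DESeq2. GNLY had 0.876 and 1.78 CPM after treatment, against 1.33 and 6.01 CPM before (-1.46, SE 0.70, adjusted p = 0.897). PRF1 had positive differences of 0.34 and 0.11. In this subset edgeR called 0.0% and DESeq2 0.0608% of all genes.

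In CD4 memory cells the fitted differences ran from -0.48 for GZMA to 0.29 for GZMM, with a median of -0.16. PRF1 had 29.1 and 28.7 CPM after treatment (RhDBCb and RhM22), against 27.1 and 27.2 CPM before. None of the 9 was called in CD4 memory by edgeR, at an unadjusted p under 0.05 or by DESeq2, and 0.0% of all genes were called. The treatment effect in CD8 memory minus that in CD4 memory was positive for 9 of 9 genes, with a median of 0.44 against 0.01 for all genes tested. The values ran from 0.03 for PRF1 (SE 0.84) to 0.91 for GZMB (SE 0.59, adjusted p = 1). The genes share the same few libraries and most run together across them, so these signs are not separate observations. None was called by edgeR or DESeq2 or had an unadjusted p under 0.05, and 0.0% of all genes were called. For CD4 memory minus CD4 naive the median was 0.27 and GZMB was again highest, at 1.20 (SE 0.59, adjusted p = 1). None was called by either tool, none had an unadjusted p under 0.05 with edgeR and 1 had with DESeq2. Of all genes, edgeR called 0.0% and DESeq2 0.00675% here.

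**Figure D4:**
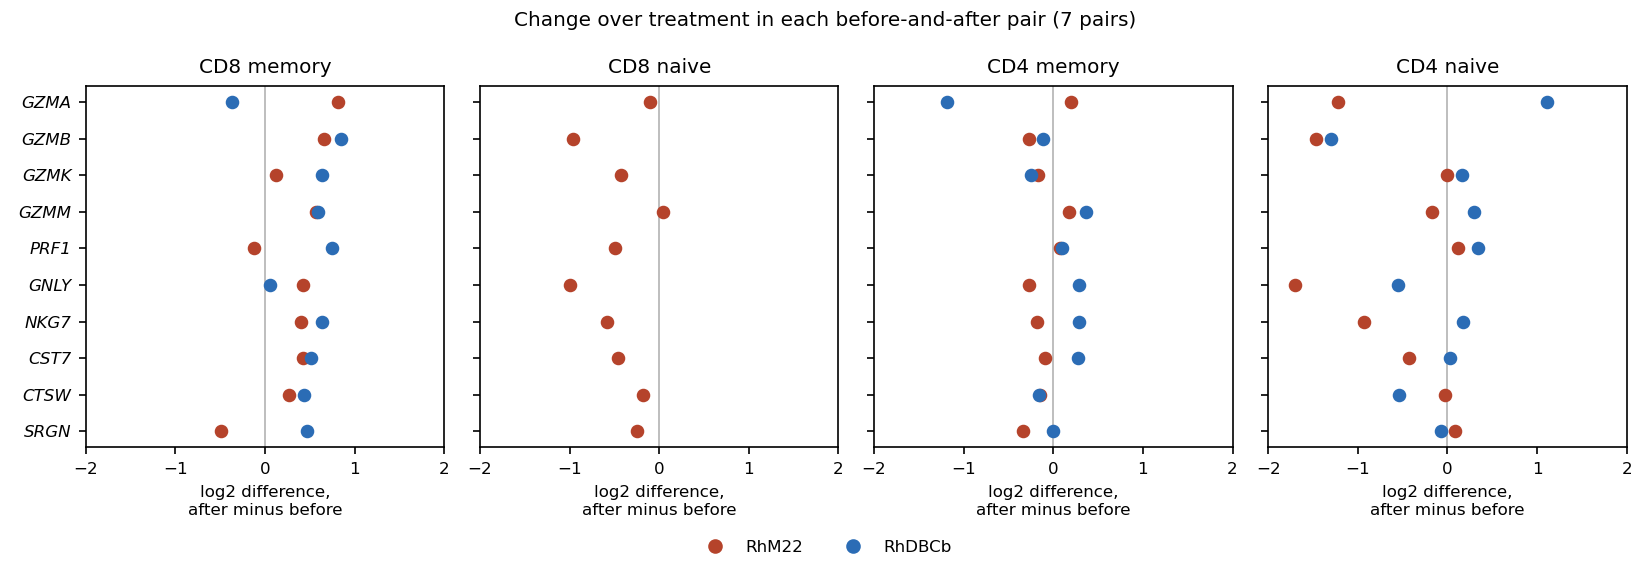
Log2 difference in CPM (after minus before, with 0.1 CPM added) for each granule gene in the 7 pairs of libraries from 1 animal and subset, coloured by animal. In CD8 memory 8 of the 9 genes chosen by symbol lie right of 0 in RhDBCb and 7 in RhM22, in CD8 naive cells 8 lie left of it, and GZMB in CD4 naive cells lies at -1.30 and -1.46.

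The animals were compared for their change over treatment, RhM22 minus RhDBCb. None of the 9 genes was called by edgeR or DESeq2, where edgeR called 4.58% and DESeq2 11.3% of all genes. With each tool 1 gene had an unadjusted p under 0.05, which with edgeR was SRGN at -0.43 (SE 0.19, adjusted p = 0.220). Of all genes 20.2% had an unadjusted p under 0.05 with edgeR and 22.9% with DESeq2. Without the outlying CD8 naive library the SRGN value was -0.37. The change of SRGN was -0.25 (SE 0.13, adjusted p = 0.799) in RhM22 and 0.19 (SE 0.14, adjusted p = 0.452) in RhDBCb. Within RhM22 none of the 9 was called or had an unadjusted p under 0.05. Of all genes 0.0608% were called there and 6.57% had an unadjusted p under 0.05. Within RhDBCb none of the 9 was called or had an unadjusted p under 0.05 either, with 10.1% of all genes called and 24.9% under that unadjusted p. DESeq2 was not run for the changes within 1 animal. The 2 animals' levels differed more evenly for some genes than for others. SRGN was higher in RhM22 than in RhDBCb in 7 of 7 matched libraries, at 1.04 to 2.01 times its level. GZMK was lower in RhM22 in 7 of 7, at 0.205 to 0.956 times its level in RhDBCb, and at 0.531 to 0.956 times in the other 6 without the outlying CD8 naive library. PRF1 in RhM22 stood at 2.54 and 4.65 times its RhDBCb level in CD8 memory cells (after and before treatment), but at 0.527 and 0.616 times that level in CD4 naive cells.

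Genes that mature, move or accompany the granules were counted from 5 lists, 101 genes tested in all. Between CD8 memory and CD4 memory cells, 14 of 21 cytotoxic and NK surface receptors and their chemokines were called higher. Of all genes tested, 3.76% were called higher and 2.59% lower in this comparison. KLRD1, the CD94 chain of NKG2 receptors, was 7.27 higher, KLRG1, an inhibitory receptor, 5.42 and CCL5, a chemokine, 5.39. Of 8 other effectors 4 were higher, among them FASLG, the death ligand, at 2.98 and APOBEC3G, an antiviral deaminase, at 2.03. Of 25 transcription factors 9 were higher and 1 lower, with ZEB2 at 3.77, EOMES at 2.94 and HOPX at 1.95, and LEF1, a factor of naive cells, at -1.60. The exocytosis machinery moved less, with 5 of 29 higher and 1 lower. Its higher genes included the synaptotagmin-like proteins SYTL2 (1.94), SYTL3 (1.46) and SYTL1 (0.87), and the lower one was RAB11A (-0.64), a GTPase of recycling endosomes. Of 18 genes for protease maturation and control 3 were lower, LGMN at -2.03, CTSL at -1.85 and CTSH at -1.05, all of them lysosomal proteases. The median log2 fold change was 2.94 for the receptors, 1.73 for the other effectors, 0.54 for the transcription factors, 0.03 for exocytosis and 0.06 for maturation, against 0.03 for all genes tested.

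The same lists between naive cells of the 2 lineages gave 13 of 21 receptors, 5 of 25 transcription factors and 3 of 8 effectors higher in CD8 naive, with list medians of 2.82, 0.00 and 0.69 against -0.02 for all genes tested. None of 29 exocytosis genes was called by edgeR, and of 18 maturation genes 1 was higher and 1 lower, where 1.54% of all genes were called higher and 1.26% lower. CRTAM, a receptor of cytotoxic lymphocytes, averaged 126 ± 60.4 CPM in CD8 naive (SD, n = 3) against 0.962 ± 0.852 CPM in CD4 naive cells (SD, n = 4). KLRD1 averaged 23.2 ± 7.54 CPM against 0.123 ± 0.0988 CPM. CTSL was 4.23 lower in CD8 naive cells, at 22.2 ± 8.29 CPM against 384 ± 172 CPM. All values of this comparison include the outlying CD8 naive library of RhDBCb.

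The lists were also counted between memory and naive cells. Of 29 exocytosis genes 5 were higher and 1 lower in CD8 memory, where 8.1% of all genes were higher and 5.39% lower. In CD4 memory 2 were higher, close to the 5.22% of all genes. The list medians were 0.31 in CD8 and 0.12 in CD4 cells, against 0.03 and -0.03 for all genes tested. RAB27A, the GTPase that docks granules at the membrane, was 1.65 higher in CD8 memory (SE 0.17, adjusted p = 5.871e-05) and 1.25 higher in CD4 memory (SE 0.16, adjusted p = 1.995e-04). STX11, a fusion protein needed for granule release, was 2.11 and 1.12 higher. Of 21 receptors 9 were higher in CD8 memory and 9 in CD4 memory. Of 25 transcription factors 9 were higher and 4 lower in CD8 memory, and 7 higher and 4 lower in CD4 memory. TBX21, which encodes T-bet, was 2.63 higher in CD8 memory and 3.44 higher in CD4 memory, and HOPX 3.03 and 4.30. Lower ones included LEF1 (-2.16) and ZEB1 (-1.05) in CD8 memory, and ID2 (-0.90) and TCF7 (-0.59) in CD4 memory. The naive-cell factor BACH2 was lower by 2.45 in CD8 memory and 2.57 in CD4 memory. Of 18 maturation genes 6 were higher and 1 lower in CD8 memory, and 4 higher and 1 lower in CD4 memory. The lower one was CTSH, by 1.48 and 1.22. CTSC, the protease that activates granzymes, was 0.80 higher in CD4 memory (SE 0.15, adjusted p = 0.00508), at 30.9 ± 4.83 CPM against 17.8 ± 2.52 CPM in CD4 naive cells (SD, n = 4 each). For treatment over all subsets none of the 101 genes was called by edgeR, 20 had an unadjusted p under 0.05 and DESeq2 called 2. Of all genes tested 10.3% had an unadjusted p under 0.05 and DESeq2 called 1.19%.

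Levels of the genes ran together across the 15 libraries, which share 2 animals and 4 subsets. For log2 CPM the Pearson r of the 36 pairs without SRGN was 0.602 to 0.989, with a median of 0.881 and GNLY with NKG7 at the top. PRF1 with GZMA was the lowest of these. The 9 pairs with SRGN gave -0.234 to 0.203, and -0.0232 to 0.427 over the 14 libraries without the outlying one. Among 8280 genes with enough reads, the most alike in pattern were SLAMF7 for CST7 (r = 0.990), SAMD3 for NKG7 (0.985) and for GNLY (0.981), CD8B for CTSW (0.982) and PPP2R2B for GZMK (0.980). KLRD1 was the most alike for GZMM (0.977), RGS9 for GZMA (0.974), IL18RAP for GZMB (0.967) and ETF1 for SRGN (0.954).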

How the data were processed

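RNA from T cell subsets of 2 rhesus macaques was sequenced from SMART-Seq v4 libraries, per the labels' protocols. How the subsets were separated is not given in the sources used here. The authors deposited expected counts per gene, which per the submitters' processing notes come from cutadapt 1.18, STAR 2.7.6a and RSEM 1.3.3 with the builds Mmul_10 and rheMac10. The authors also deposited FPKM values for 28331 of the genes, used here only to describe levels and shares on that scale. The gene lengths behind them are not given in the sources used here. Strand use in counting and any filter are not given in the sources used here.

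Rounding the expected counts changed no library's sum by more than 26.1 counts. Libraries were grouped by the cell type, treatment and animal in their labels. edgeR's filterByExpr (minimum count of 10) kept 14814 genes, including all 10 genes described. CPM used TMM-scaled totals. Tests were edgeR's quasi-likelihood F test with Benjamini-Hochberg adjustment over all genes tested. The SE is the absolute log2 fold change divided by the square root of F. Subset contrasts and treatment over all subsets came from a model of subset, time and animal, single-subset treatment effects from 8 subset-by-time groups plus animal, and the animal-by-time term from a model of subset, animal, time and their interaction. All 15 libraries shared 1 estimate of spread. The change within each animal came from that interaction model and was added after seeing the data. Pairs compare libraries of 1 animal, on log2(CPM + 0.1).

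The animal pairs the libraries, since same-animal libraries come from the same macaque. Over 42 such pairs of libraries, deviations from group means correlated at 0.195 to 0.501. Alternatives were DESeq2, RLE size factors, no low-count filter, no animal block, a block for each pair, leaving out each library, and before or after libraries only. The main edgeR models were tested on simulated data that held no difference between the animals. The alternatives and the change within each animal were not tested in this way. The genes and gene lists were chosen with earlier results of these data known. From each list, up to 3 called genes per direction could be named, those with the largest absolute fold changes and an average of 5 CPM or more, and for each granule gene the most alike others by Pearson r. The software was edgeR 4.0.16 and DESeq2 1.42.0 (with limma 3.58.1) in R 4.3.3. Reads carry no molecular identifiers, so depth understates the error of a count.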

Additional observations from a re-analysis of the deposited data

Results flagged for a closer look

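PRF1 was higher in memory than in naive cells in 3 of 3 CD8 pairs and lower in 4 of 4 CD4 pairs. The mean pair differences were 2.40 in CD8 and -0.65 in CD4 cells, 3.05 apart on the log2 scale. The edgeR test of that difference gave 3.19 (adjusted p = 0.107), and 3.47 (adjusted p = 0.0181) without the CD8 memory library of RhDBCb before treatment.

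Several genes moved in opposite directions over treatment in both pairs of 1 subset against both pairs of another. The mean after-minus-before difference of GZMB was 2.13 higher in CD8 memory than in CD4 naive pairs, a difference that was not tested. It was 0.941 higher in CD8 memory than in CD4 memory pairs, where edgeR gave 0.91 (adjusted p = 1). GZMK differed by 0.586 between CD8 memory and CD4 memory pairs (edgeR 0.54, adjusted p = 1) and CTSW by 0.503 (edgeR 0.48, adjusted p = 1). Between CD8 memory and CD4 naive pairs, GNLY differed by 1.36 and CTSW by 0.634, and neither difference was tested.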

How the results depend on the processing

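Of 1250 values for single genes under the alternatives, 1178 kept their direction and their side of the threshold, 45 kept direction but were no longer called, 7 became called and 20 changed sign. None of the sign changes touched a call. With before libraries only, 3 of 9 genes were called for CD4 memory minus CD4 naive and 1 for CD8 memory minus CD8 naive, and with after libraries only 4 for CD8 memory minus CD8 naive. Fits of before or after libraries only use fewer libraries than the main fit, and CD8 naive cells after treatment came from RhM22 only. The share of all genes called in these smaller fits is not given here. Whether the lower counts reflect the granule genes or the smaller fits was not tested. For the difference of memory effects, DESeq2 called 2 genes, and leaving out 1 library gave 0 to 1. The animal pairs the libraries, and without this block 5 genes were called for CD4 memory minus CD4 naive, with GZMB (adjusted p = 0.0810) and CTSW (0.168) lost, and 6 for CD8 memory minus CD8 naive, with SRGN lost (0.222). The block changed no other count of called genes. Sign changes were CTSW for CD8 memory minus CD8 naive (-0.22 with before libraries only, -0.17 to 0.31 leaving out 1 library), and GZMB for the difference of memory effects (-0.17 with before libraries only, -0.15 to 1.05 leaving out 1 library). For treatment over all subsets, a block for each pair turned GZMK to 0.0070 and CST7 to 0.051. Leaving out 1 library gave -0.29 to 0.076 for GZMK, -0.11 to 0.33 for PRF1, -0.33 to 0.10 for NKG7, -0.25 to 0.14 for CST7 and -0.11 to 0.0039 for SRGN. The cause of these changes was not tested. Without the CD8 naive library after treatment, the CD8 naive change gives no value. With 2 animals and at most 2 libraries a group, SEs of treatment effects in single subsets were 0.26 to 0.98 for the 9 genes, and even GZMB at -1.39 (SE 0.43) in CD4 naive cells was not called.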

Other observations

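For the change in RhDBCb over all subsets together, edgeR called 12 of the 101 related genes, a share close to the 10.1% of all genes tested. Of 10 platelet markers tested 3 were called higher in the same animal, and its CD8 memory libraries had a proliferation list of 323 CPM after and 728 CPM before treatment. Their part in the values of these genes was not tested. EOMES, a transcription factor of cytotoxic cells, was 0.93 higher after treatment in this animal (SE 0.27, adjusted p = 0.0419), and HOPX was 1.42 lower (SE 0.40, adjusted p = 0.0384). BACH2 was 1.17 higher and STAT5A 0.83 higher, and IL2RB, a chain of interleukin receptors, was 0.98 higher (SE 0.27, adjusted p = 0.0354). The lysosomal protease LGMN was 1.33 higher, and the fusion proteins STX8 and SNAP23 lower by 0.76 and 0.49. In RhM22 none of the 101 genes was called and 15 had an unadjusted p under 0.05, beside 6.57% of all genes, and DESeq2 was not run for 1 animal alone. The difference between the animals, RhM22 minus RhDBCb, was called for 5 of the 101 genes by edgeR and 15 by DESeq2, beside 4.58% and 11.3% of all genes tested. Among them were STAT4 at -1.52 (SE 0.21, adjusted p = 0.00237), STAT5A at -1.49, LGMN at -1.77, IL2RB at -1.46 and LAMP2, a lysosomal membrane protein, at -0.86.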
